A study of Vitis vinifera with 165 samples.

Results

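Severe and moderate crop removal were compared in late-ripening Pinot noir berries of 2012, in 12 of the 165 libraries of a vineyard study. The 12 were chosen by their labels as all libraries of time points 6 and 7 of that season, 21 and 32 days after veraison. Of these, 6 came from vines thinned by 75%, which kept a cluster on every other shoot, and 6 from vines thinned by 50%, which kept a cluster on each shoot, with 3 libraries per level and day. Vines were clone FPS 23 of Vitis vinifera cv Pinot noir on Freedom rootstock, in 1 vineyard near Modesto. A sample was a pool of 60 berries taken from 6 clusters, ground with the seeds removed, from blocks of 8 vines in 3 rows per treatment. An unthinned control is described in the labels and was not analysed here, so each difference below is between a severe and a moderate thinning. The design asks how the strength of thinning bears on ripening.

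Veraison is the onset of ripening, when a grape berry softens and colours. After it the berry imports sugar from the leaves, loses malic acid, and late in ripening builds aroma and cell wall changes while many genes of the young fruit are turned down. Cluster thinning leaves fewer clusters to share the sugar of the same vine, and growers use it with the aim of riper fruit at harvest. Expression in pools of berries is a bulk measure, in which fewer cells of a type and less RNA per cell cannot be told apart.

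Expression was given for 29971 gene models in RPKM, which scales a read count by gene model length and by the mapped reads of the library. Total RPKM of the 12 libraries lay between 880345 and 1064797, and from 15473 to 16202 gene models per library were at or above 1 RPKM. Read counts were not given. Ratios of low values put the depth of the deepest library at 2.64 times that of the shallowest. These estimates are rough, since 19.3% to 26.6% of the ratios of a library lay near the peak that gave its depth. They also assume whole read counts, which was not checked. On day 21 the estimates relative to the first library were 1, 1.03 and 1.04 at 75% thinning, against 1.53, 1.12 and 1.74 at 50%, and on day 32 they were 0.658, 1.23 and 1.10 at 75%, against 0.666, 0.991 and 0.765 at 50%. The part of depth in the day 21 results was not tested. The first principal component, with 47.5% of the variance, separated the days. The 75% and 50% libraries numbered 2 of day 21 stood apart from the other day 21 libraries. They correlated with each other at r = 0.988 across gene models, and with no other day 21 library above 0.973, while the other 4 correlated at 0.977 to 0.987. The sugar, the score, the counts of calls, the shares by late ripening direction and the agreement with other seasons are therefore given with and without both. The gene models carry identifiers only, and the reference table used here named 0 of them, so no gene roles are given and the labelled tissue was not checked against markers.

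Berries at 75% thinning had a higher late ripening score than those at 50% thinning on both days, and more sugar in the mean. On day 21 the samples held 21.02, 20.71 and 20.68 g sugar per 100 ml at 75% thinning, against 20.46, 20.71 and 20.56 g at 50%. On day 32 they held 26.12, 24.84 and 23.84 g at 75% thinning, against 23.58, 22.21 and 24.01 g at 50%. The ranges of the levels met on day 21 at 20.71 g and overlapped on day 32. Means on day 21 were 20.8 ± 0.19 g per 100 ml at 75% and 20.6 ± 0.13 g at 50% thinning, and on day 32 they were 24.9 ± 1.14 g at 75% and 23.3 ± 0.94 g at 50% (SD, n = 3 each). Over both days sugar was 0.947 g per 100 ml higher at 75% thinning (exact permutation test within days, two-sided, p = 0.045). With adjustment over the 4 tests of sugar and score the p was 0.09, which does not pass 0.05. The difference was 0.227 g on day 21 and 1.67 g on day 32, and the change between the days was not established (1.44 g, exact permutation test, p = 0.25).

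A late ripening score placed each library on a scale set by other seasons. It is the mean log2(RPKM + 1) of 100 risers minus that of 100 fallers. These rose or fell most from day 21 to day 35 of 2013 and 2014, among gene models called for that change. The call used limma at an adjusted p under 0.05. The size of the change came from those seasons alone, but the spread and the filter on low values came from all 165 libraries. On day 21 the score was -1.39, -1.59 and -1.43 at 75% thinning, against -2.39, -1.75 and -1.93 at 50%. On day 32 it was 1.14, 0.96 and 0.81 at 75% thinning, against 0.39, -0.58 and 0.36 at 50%. All 3 libraries at 75% thinning lay above all 3 at 50% on each day. Over both days the score was 0.73 log2 units higher at 75% thinning (exact permutation test within days, two-sided, p = 0.005, the smallest that 400 arrangements allow, adjusted p = 0.02 over 4 tests). The score was added after the 12 libraries were examined, and the adjustment does not cover that choice. The differences of 0.55 on day 21 and 0.91 on day 32 each had p = 0.1, the smallest that 3 against 3 allow, and did not differ detectably from each other (0.36, exact permutation test, p = 0.575). The labels do not say which row a replicate number stands for, and both days may share rows. The means of both days per level and replicate number are called plot means below, though the labels do not tie the numbers to plots. On these means, 3 against 3, the score difference had an exact permutation p of 0.1, the smallest possible, and the sugar difference one of 0.2. Without both day 21 libraries numbered 2 the score difference was 0.83 (exact permutation test, p = 0.0167, the smallest possible with these samples) and the sugar difference 1.00 g (p = 0.0333).

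**Figure D1:**
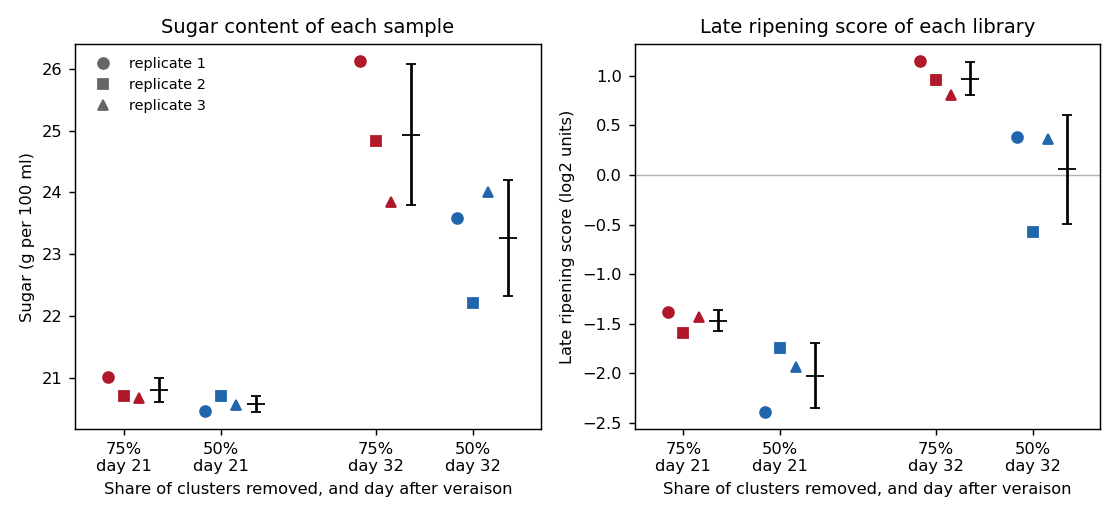
Sugar in g per 100 ml (left) and late ripening score in log2 units (right) of the 12 samples, by thinning level and day. Symbols are replicate numbers and bars are the mean and SD of 3 samples. The score at 75% thinning lies above that at 50% in every library on both days, by 0.55 on day 21 and 0.91 on day 32, while sugar ranges meet or overlap.

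Both sides of the score differed between the levels. The 100 risers averaged 3.32 ± 0.15 log2 units on day 21 and 4.31 ± 0.04 on day 32 at 75% thinning, against 3.08 ± 0.07 and 3.86 ± 0.22 at 50% (SD, n = 3 each). The 100 fallers averaged 4.79 ± 0.04 and 3.34 ± 0.16 on the same days at 75% thinning, against 5.11 ± 0.25 and 3.80 ± 0.33 at 50%. Over both days the risers were 0.35 higher at 75% thinning, and the fallers, with the sign turned, 0.39 (exact permutation tests, p = 0.005 each, the smallest possible). Of the risers, 98 passed the filter on low values and 93 of these had a higher value at 75% thinning, with a median difference of 0.33. Of the fallers, all 100 passed and 93 had a lower value, with a median of -0.35. Over all gene models tested 37.8% had a higher value at 75% thinning, with a median of -0.03. Without both day 21 libraries numbered 2 these counts were 96 of 98 risers higher and 91 of 99 fallers lower, where 48.9% of all gene models tested had a higher value. With sugar content in the model 86 of the 98 risers had a higher value and 72 of the 100 fallers a lower one. In that model 31.8% of all gene models had a higher value, so the share of fallers lay near that of all gene models. The neighbouring days of 2012 lay on the same scale, at -2.84 ± 0.10 at 75% and -3.26 ± 0.25 at 50% thinning on day 11, at 1.54 ± 0.16 on day 34, sampled at 75% only, and at 1.84 ± 0.38 on day 42, sampled at 50% only (SD, n = 3 each). The 75% berries of day 32 stood below those of day 34 in score, with a mean sugar of 24.9 g against 23.9 g per 100 ml on day 34.

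No single gene model passed the test of the thinning levels in late 2012. limma on log2(RPKM + 1), with day as a covariate and Benjamini-Hochberg adjustment, called 0 of 16862 gene models (0%), with a lowest adjusted p of 0.234. Below an unadjusted p of 0.05 lay 1250 gene models (7.41%, where 5% are expected without any difference), 301 higher (1.79%) and 949 lower (5.63%) at 75% thinning. The same contrast in a limma fit of all 165 libraries, which share 1 estimate of the spread, called 13 of 20460 gene models (0.0635%), 3 higher and 10 lower, with 1942 (9.49%) below an unadjusted p of 0.05. Quantile normalization gave 743 higher and 865 lower below that p, a share of 46.2% higher in place of 24.1%. The balance of higher and lower gene models also rested on the libraries that stood apart. Without the 75% library numbered 2 of day 21 it was 932 higher and 785 lower, and without both libraries numbered 2 it was 1000 higher and 1236 lower, with 1 called by limma, VIT_13s0064g01110 (0.55, adjusted p = 0.0472).

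The differences were small. The median absolute log2 difference was 0.08, the 90th percentile 0.24 and the 99th 0.60, with a median SE of 0.11. For 16373 gene models (97.1%) the 95% interval of the difference lay inside a 2-fold change either way, and for 15010 (89%) inside a 1.5-fold change. The scale understates changes of low gene models. In 174 gene models (1.03%) the 3 libraries of each level did not overlap on either day with the same direction, 34 above (0.202%) and 140 below (0.83%) at 75% thinning. In 59 (0.35%) they did not overlap in opposite directions. On day 21 alone the levels did not overlap in 1194 gene models (7.08%), and on day 32 in 2759 (16.4%). Without any difference, 3 against 3 libraries separate on a day with a probability of 0.1. The share of day 21 lay below this, and these counts carry no test.

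Most gene models with an unadjusted p under 0.05 followed the direction of late ripening. Between day 21 and day 35 of 2013 and 2014, 23.7% of all 20460 gene models fell and 27.8% rose (limma, adjusted p under 0.05). Among the 16862 tested in late 2012 these shares were 25.3% and 32.2%. Of the 949 gene models with a lower value at 75% thinning and an unadjusted p under 0.05, 706 (74.4%) belonged to those that fell and 42 (4.43%) to those that rose. Of the 301 with a higher value, 197 (65.4%) rose in late ripening and 14 (4.65%) fell. These are shares of gene models, which are not independent, and carry no test. Without both libraries numbered 2 the shares were 76.6% of 1236 and 74.7% of 1000, and after quantile normalization they were 76.1% of 865 and 72.5% of 743. With sugar content in the model they were 56.7% of 467 and 39% of 164.

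On each day the median of all gene models lay between those of gene models that fell and that rose. On day 21 the median of gene models that rose was itself negative. The median difference of gene models that fell in late ripening was -0.12 on day 21 and -0.13 on day 32, and that of gene models that rose was -0.02 and 0.07, beside -0.06 and -0.01 for all gene models tested. Over both days the medians were -0.12 for those that fell, 0.02 for those that rose and -0.03 for all. Without both day 21 libraries numbered 2 they were -0.11, 0.06 and -0.003. Values of single days and of the steepest gene models are not given without these libraries. The thinning difference was larger where late ripening itself was steeper. Of the 87 gene models that rose by at least 1 log2 unit, 94.3% had a higher value at 75% thinning, with a median of 0.33 over both days. Of the 398 that fell by at least 1 log2 unit, 87.7% had a lower value, with a median of -0.29.

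**Figure D2:**
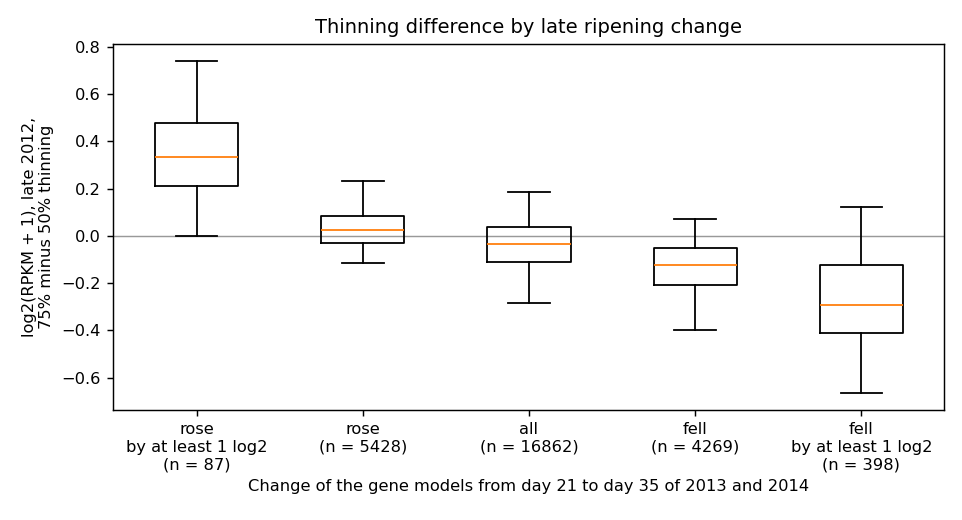
Difference in log2(RPKM + 1) between 75% and 50% thinning in late 2012, for gene models grouped by their change from day 21 to day 35 of 2013 and 2014. Boxes span the quartiles with the median, and whiskers the 5th to 95th percentiles. Medians step down from 0.33 in the steepest risers to -0.29 in the steepest fallers, with -0.03 over all 16862 gene models.

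The levels of 4 gene models are given in full. They were chosen after their values were seen, as those with the smallest p in each direction among gene models above 0 in all 12 libraries. VIT_08s0040g00490 had 8.68, 7.03 and 7.34 RPKM on day 21 at 75% thinning, against 1.99, 2.62 and 1.65 RPKM at 50%. On day 32 it had 14.6, 12.4 and 6.82 RPKM at 75% thinning, against 6.19, 4.79 and 5.77 RPKM at 50%. Every library at 75% lay above every library at 50% of its day, and the 75% berries of day 21 also lay above the 50% berries of day 32. The log2 difference was 1.17 ± 0.18 (SE, limma, adjusted p = 0.234). Without the 75% library numbered 3 of day 32, the lowest of its group, it was 1.34 (limma, adjusted p = 0.00207). With any other single library or replicate number left out the adjusted p lay between 0.0978 and 0.9999 (limma). This gene model also rose in late ripening of the other seasons, by 1.03 ± 0.22 log2 units.

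VIT_18s0086g00320 had 32.0, 29.1 and 26.0 RPKM on day 21 at 75% thinning, against 19.4, 23.0 and 20.5 RPKM at 50%. By day 32 it stood at 45.9, 54.4 and 39.9 RPKM at 75% thinning, against 30.9, 23.1 and 29.5 RPKM at 50%. The levels did not overlap on either day, and the difference was 0.59 ± 0.10 log2 (SE, limma, adjusted p = 0.242). It rose by 1.25 ± 0.14 log2 units in late ripening of 2013 and 2014.

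VIT_13s0064g01260, an abundant gene model that dropped steeply between the days, had 372.5, 354.8 and 342.5 RPKM on day 21 at 75% thinning, against 596.9, 444.6 and 593.0 RPKM at 50%. The day 32 values were 55.3, 55.0 and 56.5 RPKM at 75% thinning, against 88.85, 119.7 and 74.55 RPKM at 50%. The levels did not overlap on either day, with a value of -0.66 ± 0.11 for 75% minus 50% thinning on the log2 scale (SE, limma, adjusted p = 0.234). In late ripening of the other seasons it fell by 2.68 ± 0.14 log2 units. VIT_00s0211g00040 had 5.222, 5.865 and 5.437 RPKM on day 21 at 75% thinning, against 8.080, 8.514 and 6.956 RPKM at 50%. Its day 32 values were 4.148, 4.727 and 5.235 RPKM at 75% thinning, against 6.504, 7.567 and 7.185 RPKM at 50%. This gene model also separated the levels on both days (-0.47 ± 0.08 SE, limma, adjusted p = 0.242), and it was called in the fit of all 165 libraries (adjusted p = 0.0248). Without both day 21 libraries numbered 2 the differences of the 4 gene models, in the order described, were 1.18, 0.64, -0.73 and -0.47 log2 units. The late ripening change of VIT_00s0211g00040 in the other seasons did not pass the test, at -0.15 ± 0.07 log2 (SE, limma, adjusted p = 0.068). Its thinning difference was -0.16 in late 2013 and 0.03 in late 2014. For the other gene models, in the same order, these differences were 0.90 and 0.73, 0.28 and 0.34, and -0.58 and -0.05.

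**Figure D3:**
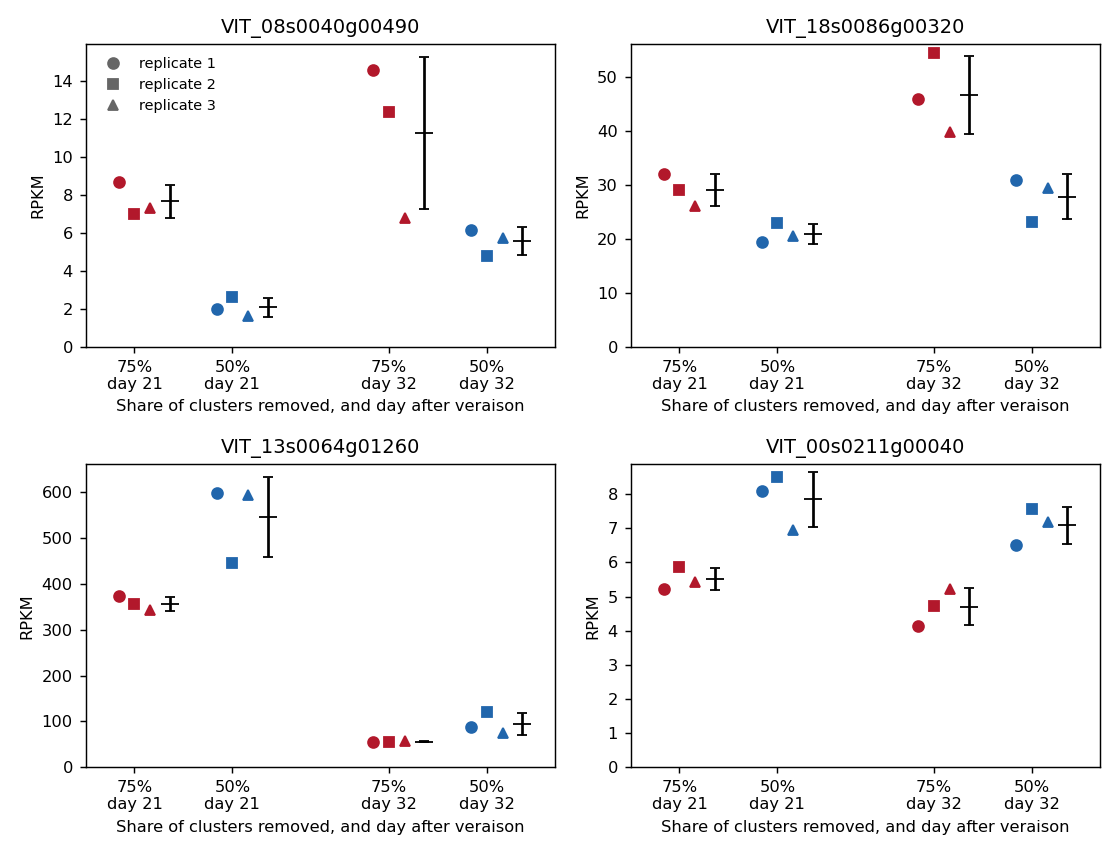
RPKM of 4 gene models in the 12 libraries, by thinning level and day, with the mean and SD of 3 libraries. VIT_08s0040g00490 and VIT_18s0086g00320 are higher at 75% thinning and VIT_13s0064g01260 and VIT_00s0211g00040 lower, with no overlap on either day.

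The 13 gene models called in the fit of all 165 libraries had absolute log2 differences between 0.40 and 0.87. Both fits take these differences from the same 12 libraries, so the calls are no separate evidence. In 4 of them the median over the 12 libraries was below an RPKM of 2. The largest difference was in VIT_05s0049g00730, with 2.16, 2.96 and 1.93 RPKM on day 21 at 75% thinning, against 6.745, 6.105 and 5.55 RPKM at 50%. On day 32 it had 1.44, 2.15 and 1.97 RPKM at 75% thinning, against 3.72, 5.73 and 1.685 RPKM at 50%, so that the levels were apart on day 21 and overlapped on day 32. Its log2 difference was -0.87 ± 0.16 (SE, limma on 165 libraries, adjusted p = 0.00675). In the fit of the 12 libraries the adjusted p was 0.395, and without the 50% library numbered 3 of day 32 it was 0.0465. With any other single library or replicate number left out it lay between 0.255 and 0.9999 (limma). Of the 13, 12 had the same sign in late 2013, beside 62.3% of all gene models tested, 11 in late 2014, beside 51.9%, and 10 in both. Some of these signs rest on values near 0, such as 0.03 for VIT_09s0002g01570 in 2013 and -0.0004 for VIT_16s0050g02700 in 2014. Among gene models with an unadjusted p under 0.05 in 2012, 91.8% of the lower and 72.8% of the higher ones kept their sign in late 2013. In late 2014 these shares were 65.3% and 60.5%.

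On single days few gene models were called. On day 21 limma called 0 of 16862 (0%), with 831 (4.93%) below an unadjusted p of 0.05, and 16 without both libraries numbered 2. On day 32 it called 1 (0.00593%), with 806 (4.78%) below an unadjusted p of 0.05. This was VIT_19s0085g01050, with 3.01, 2.75 and 2.71 RPKM on day 32 at 75% thinning, against 0.258, 0.0873 and 0.114 RPKM at 50%. On day 21 it had 0.431, 0.439 and 0.511 RPKM at 75% thinning, against 0.414, 0.326 and 1.38 RPKM at 50%. The levels were far apart on day 32 and overlapped on day 21. Apart from the day 32 libraries at 75%, only the library with 1.38 RPKM reached the 1 RPKM of the filter. This gene model therefore entered the test through the group where it was high, and the call supports nothing. The difference on day 32 was 1.73 ± 0.20 log2 (SE, limma, adjusted p = 0.0227). It was not called there in the fit of all 165 libraries, which called VIT_09s0002g01570 alone (1.04, adjusted p = 0.0241), nor without both day 21 libraries numbered 2. It also lost the call with a pseudocount of 0.1, no filter, quantile normalization and a replicate block. With 1 library left out it kept the call in 4 cases, without the day 21 library numbered 1 at 75% or any of the 3 at 50%, and lost it in the other 8. Late in 2013 and 2014 VIT_19s0085g01050 differed by 0.31 and -0.29 log2 units, neither past the test. Between the days the thinning difference of no gene model changed detectably (0 of 16862 called by limma, 0%, with 487 or 2.89% below an unadjusted p of 0.05).

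The late phases of 2013 and 2014, from day 21 on, gave a difference between the levels in libraries that the 2012 contrast did not use. They ran to later days than the 2012 contrast. Late 2013 averages 4 sampling days from day 21 to day 37, and late 2014 averages 5 from day 21 to day 49. Comparisons with 2012 therefore do not separate season from stage of ripening. Limma called 325 gene models in late 2013 (1.59%, 12 libraries per level), 56 higher and 269 lower at 75% thinning, and 119 in late 2014 (0.582%, 15 libraries per level), 71 higher and 48 lower. Of the 247 called lower in 2013 that were tested in 2012, 239 (96.8%) also had a lower value at 75% thinning in 2012, beside 62.2% of all gene models tested. Of the 51 called higher in 2013, 47 (92.2%) had a higher value in 2012, beside 37.8%. For 2014 these numbers were 38 of 42 lower (90.5%) and 53 of 65 higher (81.5%). Without both day 21 libraries numbered 2 they were 237 of 246 and 47 of 51 for 2013, and 38 of 42 and 58 of 65 for 2014, beside 48.9% of all gene models with a higher value in 2012 in that setting. In the other direction, of the 949 gene models lower in 2012 at an unadjusted p under 0.05, 91.8% had a lower value in late 2013 (48.2% of all tested) and 65.3% in late 2014 (52.6% of all tested). Of the 301 higher ones, 72.8% had a higher value in late 2013 (51.8% of all tested) and 60.5% in late 2014 (47.1% of all tested). No gene model was called for a difference in its thinning effect between 2012 and the mean of the other seasons (limma, 0 of 20460 called, 0%, 910 or 4.45% below an unadjusted p of 0.05). Of the 910, the value of 2012 minus the other seasons was positive in 203 and negative in 707. A missing call does not show that the effects were equal.

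A small set of gene models was called in both later seasons, 31 of 20460 (0.152%), 17 higher and 14 lower at 75% thinning. Of these, 29 passed the filter in 2012. All 15 higher and all 14 lower ones had the same sign in late 2012, where 37.8% of all gene models tested had a higher value and 62.2% a lower one. An unadjusted p under 0.05 was found in 23, beside 7.41% of all gene models, and none passed the adjustment over all gene models (lowest adjusted p = 0.395). All 29 kept that sign under each of the 23 alternatives tried. No filter, the replicate block, plot means and the fit of all 165 libraries leave the difference itself unchanged, so the sign could not turn there. Their absolute log2 differences lay between 0.16 and 0.68 in 2012, with a median of 0.43, beside medians of 0.46 in 2013 and 0.44 in 2014, the seasons that chose them. The 3 seasons share the vineyard and the vines' treatment, but no libraries, and their late phases cover different days.

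Among them VIT_08s0007g05830 had 0.982, 1.45 and 1.10 RPKM on day 21 at 75% thinning, against 0, 0.686 and 0.310 RPKM at 50%, where the first library was listed at 0. By day 32 it stood at 4.51, 4.94 and 3.09 RPKM at 75% thinning, against 2.36, 2.28 and 3.07 RPKM at 50%. The levels did not overlap on either day, though on day 32 the nearest libraries had 3.09 and 3.07 RPKM. The log2 difference was 0.63 ± 0.14 in 2012 (SE, limma, adjusted p = 0.395), 0.84 ± 0.13 in 2013 and 0.71 ± 0.11 in 2014. With a pseudocount of 0.1 in place of 1 the 2012 difference of this low gene model was 1.33. VIT_12s0028g00670 had 10.1, 9.30 and 8.15 RPKM on day 21 at 75% thinning, against 3.04, 5.28 and 5.58 RPKM at 50%. The day 32 values were 27.1, 22.8 and 10.9 RPKM at 75% thinning, against 22.0, 12.1 and 22.5 RPKM at 50%. The levels were apart on day 21, by 0.88 ± 0.32 log2 (SE, limma, adjusted p = 0.972). On day 32 they overlapped, with a difference of 0.05 ± 0.32 (SE).

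VIT_07s0031g01160 was lower in both later seasons, by -0.67 ± 0.14 and -0.61 ± 0.13 log2 units (SE). In 2012 it had 41.8, 54.9 and 61.7 RPKM on day 21 at 75% thinning, against 120.7, 80.4 and 57.4 RPKM at 50%. Its day 32 values were 8.75, 9.16 and 10.1 RPKM at 75% thinning, against 8.27, 14.95 and 12.45 RPKM at 50%. The levels overlapped on both days, and the difference was -0.47 ± 0.18 log2 (SE, limma, adjusted p = 0.588). Members of the set differed in how clearly the 2012 libraries separated. On day 21 the levels did not overlap in 16 of the 29, where 7.08% of all gene models tested did not, and on day 32 in 11, where 16.4% did not.

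**Figure D4:**
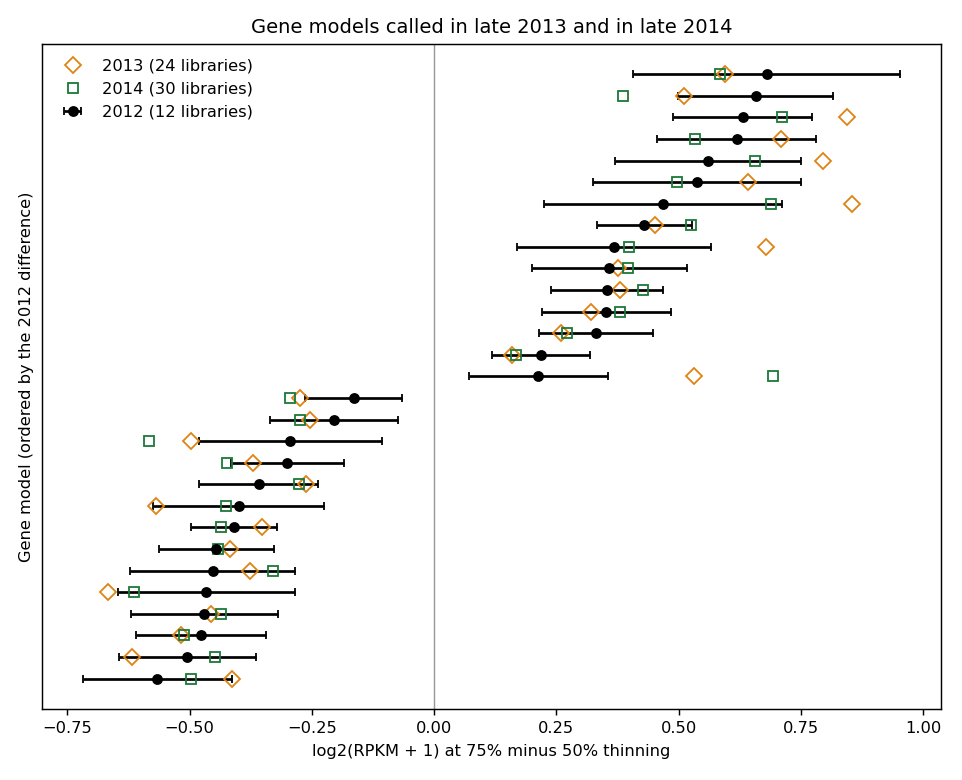
Log2 difference between 75% and 50% thinning for the 29 gene models called in late 2013 and in late 2014, in order of their difference in late 2012. Black points are late 2012 with the SE, and open symbols late 2013 and late 2014. All 29 points of 2012 lie on the same side of 0 as those of the later seasons, which chose them.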

How the data were processed

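The authors deposited RPKM values for 29971 gene models and 165 libraries, made with non-directional TruSeq libraries per the labels, so overlapping antisense genes cannot be told apart. Tools named in the submitters' processing notes are TopHat2 (2.0.6) and Cufflinks, version 2.0.2. The genome build and settings are not given in the sources used here. Reads of near-identical copies may be split between gene models. Among the 5864 gene models whose median exceeded 20 RPKM, 11 were listed at 0 in at least 1 of the 12 libraries. No library pair held identical values.

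Values were tested as log2(RPKM + 1) with limma 3.58.1 in R 4.3.3 (intensity trend, Benjamini-Hochberg adjustment over all gene models tested, threshold 0.05). The filter kept gene models at or above 1 RPKM in no fewer than 3 libraries, 16862 in the 12 libraries and 20460 in all 165, where each of 55 groups had its own mean. Sugar, from the labels, and the score were tested by exact permutation within days. Relative depth was read from ratios of RPKM values below 0.15. P-values measure the spread between pooled samples.

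The comparison, lists and named gene models were chosen with earlier results of these data known. The score and the tests of agreement with other seasons were added after the 12 libraries were examined. The naming rule took called gene models with the same sign on both days and an RPKM of at least 2, and found none, so the named ones were chosen after their values were seen. Pathway and marker lists needed gene names and were not used. Alternatives were another pseudocount, no filter, quantile normalization, a replicate block, plot means, sugar as a covariate, all 165 libraries, and leaving out libraries.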

Additional observations from a re-analysis of the deposited data

How the results depend on the processing

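The score difference kept its direction under all 20 alternatives and passed the unadjusted threshold in 19. It was 0.73 (p = 0.1) on plot means, and lay between 0.57 and 0.82 with 1 library left out (exact permutation tests, p from 0.005 to 0.01). The sugar difference lay between 0.65 and 1.22 g per 100 ml with 1 sample left out (exact permutation tests, p from 0.015 to 0.145), and was 0.947 (p = 0.2) on plot means. It missed 0.05 in 9 of 14 alternatives, and passed without the day 21 samples numbered 2 or 3 at 75% or 2 at 50%, without the day 32 sample numbered 3 at 75%, and without both numbered 2 of day 21. The count of 0 called gene models in late 2012 became 3 on plot means, 13 in the fit of all 165 libraries and 1 without both day 21 libraries numbered 2. With single libraries or replicate numbers left out it lay between 0 and 2, and with a pseudocount of 0.1, no filter, quantile normalization or sugar in the model it was 0 (limma, 1224, 1724, 1608 and 631 below an unadjusted p of 0.05). That unadjusted count of 1250 lay between 670, without replicate 1, and 1717, without the 75% library numbered 2 of day 21. It was 820 without the 50% library numbered 1 of day 21 and 806 without the 50% library numbered 2 of day 32. It was 2236 without both libraries numbered 2, and 1942 in the fit of all 165 libraries. On day 21 the count of 0 became 1 without the filter, 7 in the fit of all 165 libraries and 16 without both libraries numbered 2, and lay between 0 and 1 with libraries left out. On day 32 the count of 1 became 0 with a pseudocount of 0.1, no filter, quantile normalization, the replicate block and without both libraries numbered 2, and lay between 0 and 4 with libraries left out. The difference between the days gave 1 without the filter and 0 to 3 with libraries left out, and that between seasons 1 without the filter. In the fit with a replicate block limma called 0 gene models in late 2012, with 2013 below an unadjusted p of 0.05, and of the counts of calls it changed that of day 32 alone by over 1.5 times. Deviations of same-numbered libraries correlated at 0.056, 0.64 and 0.29 on day 21 and at 0.15, -0.043 and 0.03 on day 32, so the numbers were not taken to pair samples. Where not given, the cause of a change was not tested. Sugar in the model and plot means were not run for single days.

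The main limits are the 3 rows per treatment, 1 season with 1 pool of berries per sample, unknown read counts and the compression of low values by the added 1 RPKM.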

Other observations

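Gene models with neighbouring identifiers had differences of the same sign in places. Windows of 5 neighbouring tested gene models in which at least 4 had an unadjusted p under 0.05 with 1 sign were joined into 12 runs, 2 higher and 10 lower at 75% thinning, with 77 gene models in all. Among the 16862 gene models tested, 301 higher and 949 lower ones lay below that p. Without both day 21 libraries numbered 2 the counts were 1000 higher and 1236 lower, and the runs are not given in that setting. The runs were chosen after their values were seen and carry no test, and neighbours can be near-identical copies that share reads. In the run of 10 with the prefix VIT_05s0049 all 10 had lower values at 75% thinning, with a median log2 difference of -0.53. In late 2013 its median was -0.34, lower in 10 of 10, and in late 2014 -0.17, lower in 8 of 10. Both runs with the prefix VIT_16s0100, of 5 and 9 gene models, were lower in every member in late 2012 and late 2013. In late 2014 these runs were lower in 3 of 5 and 9 of 9 members. Their medians were -0.60 and -0.58 in late 2012, -0.53 and -0.61 in late 2013, and -0.03 and -0.14 in late 2014. For the run of 9, summed RPKM was 91.5, 99.8 and 60.9 on day 21 at 75% thinning, against 109.1, 155.3 and 77.5 at 50%. On day 32 it was 70.4, 110.3 and 145.9 at 75% thinning, against 155.8, 319.5 and 122.2 at 50%. The sums overlapped on both days, and the 50% library numbered 2 of day 32 was the highest. In the run of 7 with the prefix VIT_03s0063, higher at 75% thinning, summed RPKM was 170.7, 121.2 and 130.7 on day 21 at 75%, against 112.8, 104.0 and 108.9 at 50%. On day 32 it was 200.7, 163.9 and 126.2 at 75% thinning, against 125.9, 84.5 and 97.5 at 50%. These sums did not overlap on either day, but the median difference of 0.44 in late 2012 stood beside 0.19 in late 2013 and -0.01 in late 2014.

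On plot means limma called 3 gene models, all lower at 75% thinning and all with libraries listed at 0. The first 2 described here passed the filter on low values through 50% libraries alone, so their direction was fixed by the filter and the calls support nothing. VIT_14s0066g02640 was listed at 0 in all 6 libraries at 75% thinning, and at 50% it had 0, 0 and 53.7 RPKM on day 21 and 125.2, 42.2 and 0 RPKM on day 32. VIT_00s0269g00070 was listed at 0 in all 6 libraries at 75% thinning and in 3 of 6 at 50%. VIT_07s0104g01540 was listed at 0 in 3 of 6 libraries at 75% thinning and had 7.52 to 15.0 RPKM at 50%. In late 2013 and 2014 VIT_14s0066g02640 was listed at 0 in 10 of 12 and 10 of 15 libraries at 75% thinning, against 8 of 12 and 10 of 15 at 50%. In all, 6 gene models were listed at 0 in all 6 libraries at 75% thinning and above 0 in at least 3 at 50%, and 3 showed the reverse.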
